A study of Mus musculus with 6 samples.

Results

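The laminins and matrix glycoproteins described here are the genes for 42 proteins that are secreted into the extracellular matrix, or that build or take apart its hyaluronan. They were chosen by gene symbol among the 25701 genes of a table of normalized counts, with earlier results of these data known. They comprise 11 laminin chains, 4 genes for proteins that link the basement membrane (Nid1, Nid2, Hspg2 and Agrn), 5 genes of fibronectin, vitronectin, the SPARC family and Ecm1, 7 thrombospondin, tenascin, periostin and matrilin genes, 9 elastic fibre genes, and 6 hyaluronan and proteoglycan genes. All 42 had a mean normalized count of at least 10 over the 6 libraries and entered the test.

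Polyadenylated RNA was sequenced from cells at the cardiac progenitor (CP) stage, derived in culture from 46C, a mouse embryonic stem cell (ESC) line with a fluorescent reporter at the Sox1 gene. The 3 libraries labelled Zhx1-KO come from a 46C line edited with guide RNAs at both ends of Zhx1, a gene for a zinc finger and homeobox protein, and the 3 46C-Ctrl libraries come from control 46C cells. The ESCs of this study were grown on feeder cells, and differentiation ran in serum-free medium with BMP4, Activin A, VEGF, FGF10 and bFGF, ending on plates coated with gelatin, in both groups. Whether the 3 libraries of a group were separate differentiations, and how many edited clones they represent, is stated in none of the sources, so the p-values measure the spread between these libraries only, which may be technical. Zhx1 itself was counted at 225, 325 and 308 (normalized) in the libraries labelled Zhx1-KO, against 460, 181 and 457 in 46C-Ctrl replicates 1, 2 and 3. The groups overlapped because 46C-Ctrl replicate 2 was the lowest of all. The log2 fold change of Zhx1 was -0.25 (SE 0.35, limma adjusted p = 0.579), or -0.70 (adjusted p = 0.0113) without that library. The second fit leaves out the library with the lowest Zhx1 value, so it cannot decide whether Zhx1 differed. The level of this transcript alone does not settle the label, and the 3 edited libraries are called by their label throughout.

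Laminins are trimers of an α, a β and a γ chain that polymerize into the basement membrane, the thin sheet under epithelia and endothelia and around muscle cells. Nidogens, perlecan and agrin tie this sheet to its collagen IV network and to cell surface receptors, while fibronectin, fibrillins, elastin and fibulins build the fibres of the interstitial matrix. Hyaluronan, versican and the link protein Hapln1 form the hydrated gel between endocardium and myocardium in the embryonic heart known as cardiac jelly, in which Has2, the synthase, and Vcan are needed for heart development in the mouse.

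In the libraries labelled Zhx1-KO, the matrix genes were called in both directions, with 14 higher and 14 lower than in 46C-Ctrl, and 14 not called. The 14 that were lower included 10 of the 17 that averaged 1000 normalized counts or more, namely Fn1, Thbs1, Lama5, Lamb1, Lamb2, Lamc1, Hspg2, Agrn, Nid2 and Sparc, while Lum, Hapln1, Vtn, Emilin1, Lama2, Lama4 and Fbn2 were among those that were higher. The 42 genes summed to 71086, 72104 and 65978 normalized counts in the libraries labelled Zhx1-KO, against 132796, 116718 and 121914 in 46C-Ctrl. That was 0.512, 0.510 and 0.470% of all normalized counts in the libraries labelled Zhx1-KO, against 0.919, 0.814 and 0.838% in 46C-Ctrl, with no overlap. In bulk libraries such as these, fewer cells of a type and less RNA per cell cannot be told apart.

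A gene was called at a Benjamini-Hochberg adjusted p under 0.05 from limma, over all genes tested. The 28 called were 66.7% of the 42, where 52.0% of all 15372 genes tested were called. The share called higher was 33.3% of the 42, against 25.6% of all genes tested, and the share called lower was also 33.3%, against 26.4%. Values of the 2 groups did not overlap for 32 of the 42 genes (76.2%), against 60.8% of all genes tested, and 16 were called with a change of at least 2-fold (38.1%), against 17.6%. The median log2 fold change was 0.07 over the 42 genes and 0.01 over all genes tested. These shares describe a list chosen with earlier results known, and no test was made of the list as a whole.

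**Figure D1:**
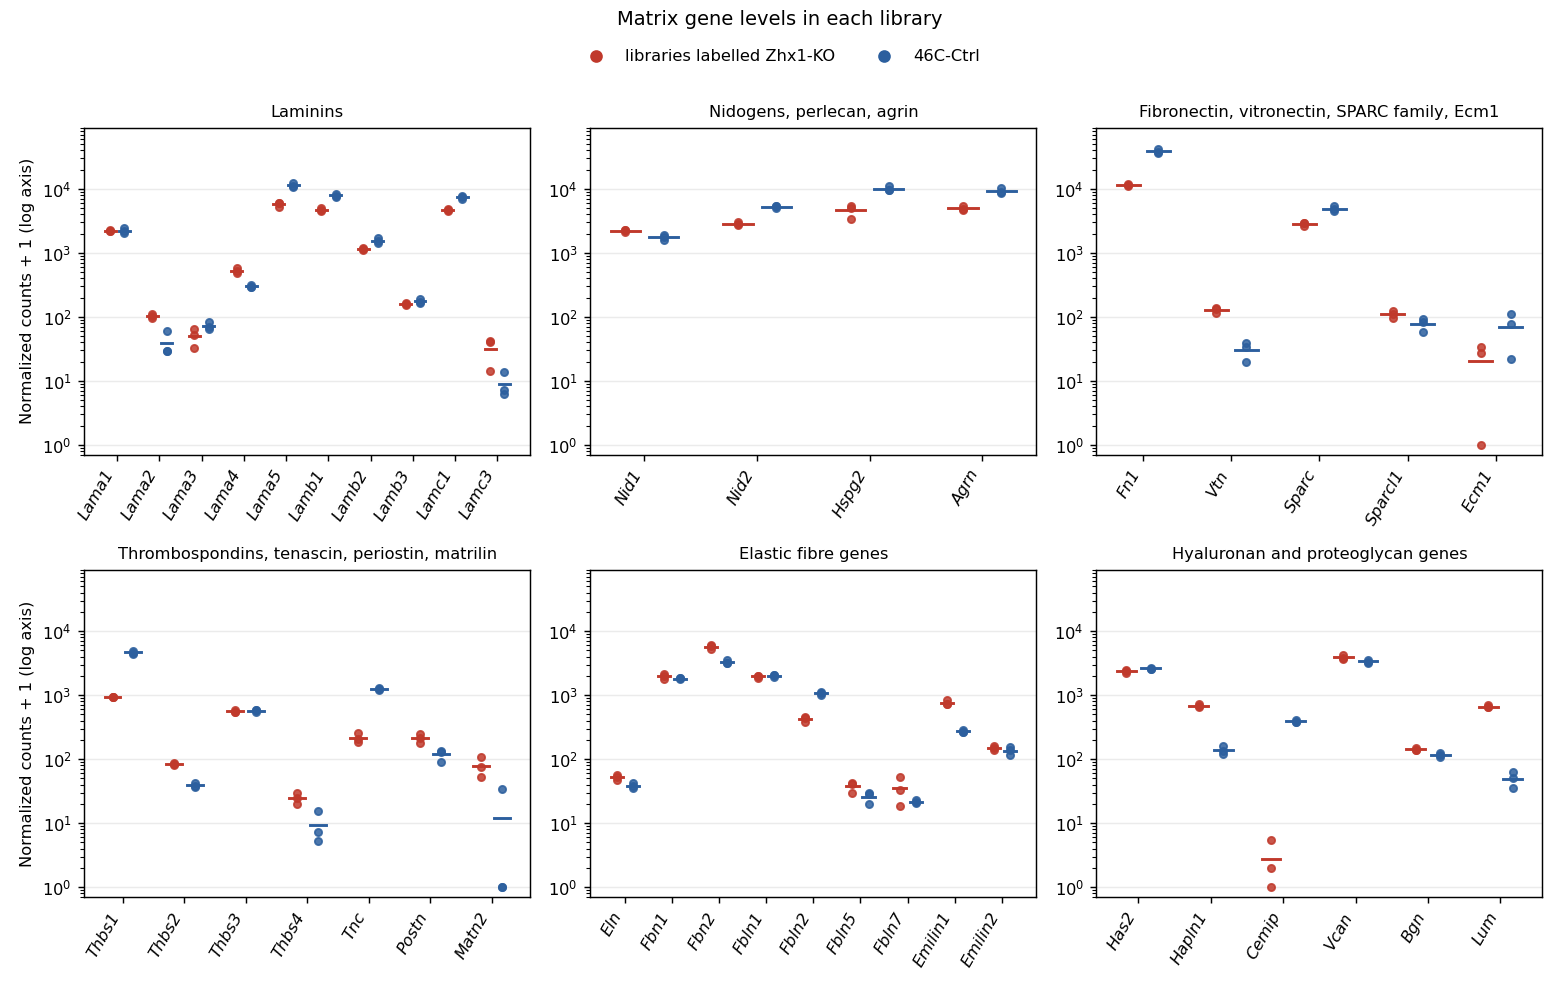
Normalized counts plus 1 (log axis) of 41 matrix genes in each library, by family, with the libraries labelled Zhx1-KO in red on the left of each pair, 46C-Ctrl in blue on the right, a point for each library and a line at the mean of the plotted values. Fn1 lies between 10971 and 11801 in the libraries labelled Zhx1-KO and between 35803 and 42603 in 46C-Ctrl, and Cemip is near 0 in the libraries labelled Zhx1-KO only.

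The direction of the calls differed with the level of the gene. Of the 17 matrix genes with a mean of at least 1000 normalized counts, 3 were higher, 10 lower and 4 not called, and of the 25 with a smaller mean, 11 were higher, 4 lower and 10 not called. At a mean of at least 1000, 17.6% of the matrix genes were thus higher and 58.8% lower, against 24.4% and 39.7% of all 3383 genes tested at that level. Below it, 44% of the matrix genes were higher and 16% lower, against 26% and 22.7% of all genes tested there. The level of 1000 was chosen after the values were seen, so these shares are a description.

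**Figure D2:**
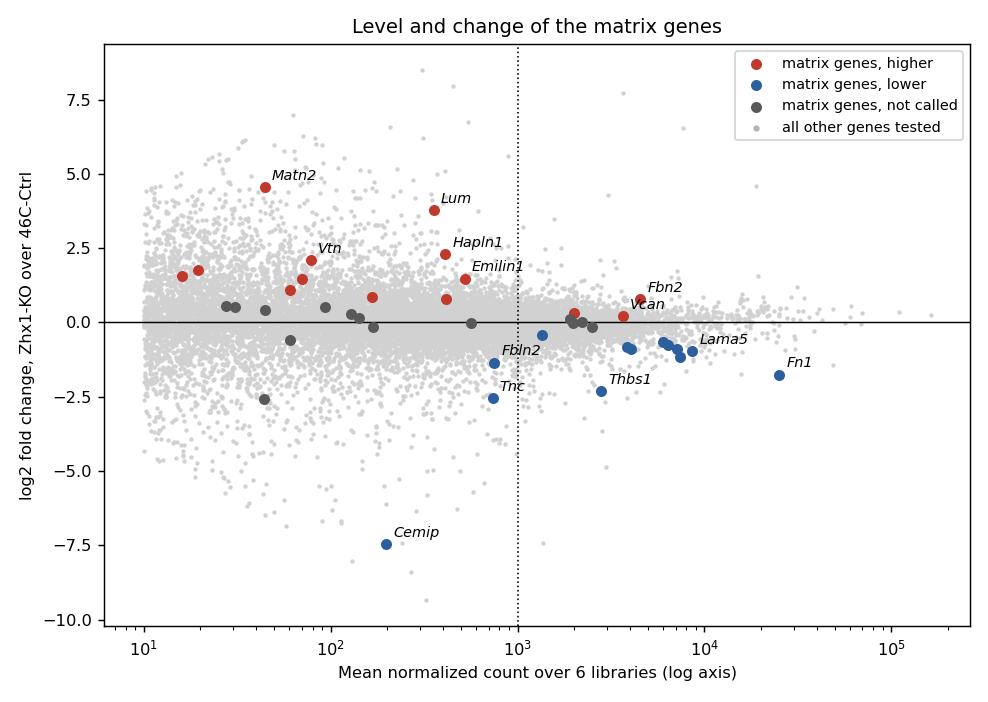
Log2 fold change (libraries labelled Zhx1-KO over 46C-Ctrl) against the mean normalized count over 6 libraries (log axis), with all 15372 genes tested in grey and 41 matrix genes in red (higher), blue (lower) and dark grey (not called). To the right of the dotted line at 1000, 10 of 17 matrix genes are lower and 3 are higher.

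Promoter windows from RefSeq on GRCm38.p6, reaching from 250 bases before a gene's start to 50 after it, were at hand for 27 of the 42 genes. The stretches printed here are the 150 bases before the start for the pair of genes with the largest falls and the pair with the largest rises among genes that changed at least 2-fold, averaged 100 or more in the higher group and had a window. CG dinucleotides, the sites of DNA methylation, are in capitals and played no part in the choice. Each stretch is printed along the strand of its gene. The stretch of Cemip is chr7:84086506-84086655 (minus strand), that of Tnc is chr4:64047016-64047165 (minus strand), that of Hapln1 is chr13:89540486-89540635 (plus strand, inside the span that GENCODE gives the gene) and that of Vtn is chr11:78498970-78499119 (plus strand). The end of the Vtn stretch also lies inside the span of its gene, which starts at 78499091 in GENCODE.
Cemip: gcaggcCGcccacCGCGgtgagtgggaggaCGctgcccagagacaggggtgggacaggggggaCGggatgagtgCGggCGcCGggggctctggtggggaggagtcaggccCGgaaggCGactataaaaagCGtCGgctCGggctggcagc
Tnc: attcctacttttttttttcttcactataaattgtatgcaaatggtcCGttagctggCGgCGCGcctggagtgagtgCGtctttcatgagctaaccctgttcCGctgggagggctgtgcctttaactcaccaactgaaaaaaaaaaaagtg
Hapln1: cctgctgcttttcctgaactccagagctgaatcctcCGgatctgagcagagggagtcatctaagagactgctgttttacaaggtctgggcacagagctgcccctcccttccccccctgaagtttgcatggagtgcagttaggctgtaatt
Vtn: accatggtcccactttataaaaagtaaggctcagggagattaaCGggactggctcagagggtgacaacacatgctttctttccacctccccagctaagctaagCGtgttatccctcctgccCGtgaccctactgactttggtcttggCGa

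These stretches hold 13 CG dinucleotides for Cemip, 6 for Tnc, 1 for Hapln1 and 4 for Vtn. Their whole windows hold 33, 10, 3 and 9 in the same order, so Tnc, which fell, and Vtn, which rose, lie close. Over the whole windows of 300 bases the 9 matrix genes that were lower had a median of 18 CG (range 4 to 42), the 9 that were higher a median of 6 (range 1 to 24) and the 9 not called a median of 9 (range 2 to 24). Among all genes tested that have a window, the medians were 23 for the 3075 that were lower, 20 for the 2994 that were higher and 20 for the 5052 not called. These ranges overlap widely, and genes are not replicates, so this is a description of 27 windows. The motif TATAAA, searched on both strands, was present in 5 of the 27 windows (18.5%), against 6.83% of windows of all genes tested and 13.6% of all 32851 windows. In Cemip it begins 29 bases before the start. The motif GGGCGG, on both strands, was present in 7 of 9 windows of matrix genes that were lower, 4 of 9 that were higher and 5 of 9 not called. It was in 65.0% of windows of all genes tested. By call, these were 69.5% for lower, 64.1% for higher and 62.8% for genes not called. Matches of TATAAA on the 2 strands can overlap, as in Vtn, where they begin at -137 and -135 relative to the start, and GGGCGG can overlap itself. A window counts once however many matches it holds, and a match is a description of the letters only.

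The family counts from here on stand beside 25.6% higher and 26.4% lower over all genes tested. Of the 11 laminin chain genes, 3 were higher, 5 lower and 3 not called, with a median log2 fold change of -0.42. The most abundant chain of each kind was lower. Lama5, the α5 chain of many embryonic and adult basement membranes, had 6109, 5970 and 5285 normalized counts in the libraries labelled Zhx1-KO, against 12513, 10549 and 11057 in 46C-Ctrl. Every library labelled Zhx1-KO was far below every 46C-Ctrl library, with a log2 fold change of -0.97 (SE 0.08, limma adjusted p = 4.74e-05). Lamc1, the γ1 chain shared by most laminin trimers, had 4699, 4781 and 4453 normalized counts in the libraries labelled Zhx1-KO, against 7752, 6970 and 7410 in 46C-Ctrl, again with no overlap and a log2 fold change of -0.67 (SE 0.05, limma adjusted p = 4.61e-05). Lamb1, the β1 chain, fell by 0.74 on the log2 scale (SE 0.06), to a mean of 4756 ± 269 in the libraries labelled Zhx1-KO, against 7957 ± 411 in 46C-Ctrl (SD, n = 3 each). Lamb2, the β2 chain of neuromuscular and kidney basement membranes, fell by 0.42 (SE 0.07), to 1151 ± 33.1 in the libraries labelled Zhx1-KO, against 1547 ± 132 in 46C-Ctrl.

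Lama3 and Lamb3, chains of epithelial laminins, were not called. Lama3 had means of 48.9 ± 16.6 in the libraries labelled Zhx1-KO and 71.8 ± 9.77 in 46C-Ctrl, and Lamb3 had 159 ± 6.11 and 176 ± 14.9 in the same order (SD, n = 3 each), with overlap in both.

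Lama2, the α2 chain of the muscle basement membrane, whose loss causes a muscular dystrophy in mouse and human, was higher. Its normalized counts were 93.7, 111 and 102 in the libraries labelled Zhx1-KO, against 28.3, 28.0 and 59.1 in 46C-Ctrl. The groups did not overlap, although 46C-Ctrl replicate 3 was well above the other two, and the log2 fold change was 1.48 (SE 0.31, limma adjusted p = 0.00491). Lama4, the α4 chain of endothelial and mesenchymal basement membranes, rose by 0.81 on the log2 scale (SE 0.09), with 527 ± 49.1 in the libraries labelled Zhx1-KO and 300 ± 14.6 in 46C-Ctrl. Lamc3, the γ3 chain, was called at a low level, 31.0 ± 15.5 in the libraries labelled Zhx1-KO and 8.06 ± 4.04 in 46C-Ctrl, with a log2 fold change of 1.75 (SE 0.55, limma adjusted p = 0.0292). This call was lost with the replicate number as a block (adjusted p = 0.0657), with quantile normalization (0.0551), and also when Zhx1-KO replicate 2 or 3, or 46C-Ctrl replicate 2 or 3, was left out (adjusted p = 0.101, 0.103, 0.0711 and 0.0728 in that order). Lama1, the α1 chain of the first embryonic basement membranes, was not called, with 2235 ± 74.6 in the libraries labelled Zhx1-KO, 2209 ± 185 in 46C-Ctrl and a log2 fold change of 0.02 (SE 0.07).

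Levels of different genes were compared per kilobase of exon, using union exon lengths from GENCODE, since longer transcripts give more reads. A union length holds the exons of every annotated isoform, used here or not, so orders and ratios between genes depend on it. On this scale the α chains summed to 794 ± 45.3 normalized counts per kb in the libraries labelled Zhx1-KO and 1261 ± 108 in 46C-Ctrl and the β chains to 693 ± 31.1 and 1083 ± 62.5 in the same order (SD, n = 3 each). The make-up of the α chains also differed. Lama5 made up 64.0 ± 1.67% of the α chain sum in the libraries labelled Zhx1-KO and 79.2 ± 0.308% in 46C-Ctrl, while Lama1 made up 29.1 ± 1.63% and 18.1 ± 0.184% and Lama4 5.50 ± 0.275% and 1.99 ± 0.237%. The ratio of Lama5 to Lama1 per kb was 2.20 ± 0.179 in the libraries labelled Zhx1-KO and 4.38 ± 0.0567 in 46C-Ctrl. For each of these sums, shares and ratios the groups did not overlap, and the two-sided exact permutation test gave p = 0.1, the smallest that 3 libraries against 3 allow.

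**Figure D3:**
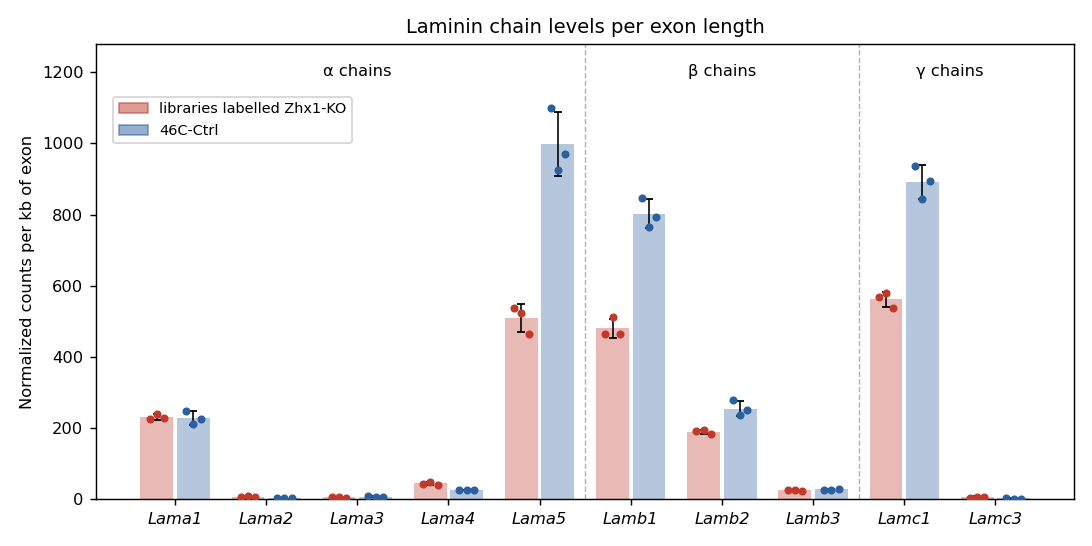
Normalized counts per kb of exon of 10 laminin chain genes, with bars for the mean, error bars for the SD (n = 3) and a point for each library, the libraries labelled Zhx1-KO in red on the left of each pair and 46C-Ctrl in blue on the right. Lama5, Lamb1 and Lamc1 stand highest in both groups and are lower in the libraries labelled Zhx1-KO, while Lama1 overlaps between the groups.

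Of the 4 basement membrane linkers, 3 fell and Nid1 was higher. Agrn, for agrin, a heparan sulfate proteoglycan that binds laminin and organizes acetylcholine receptors at the nerve-muscle contact, had 4894, 5346 and 4743 normalized counts in the libraries labelled Zhx1-KO, against 10272, 8684 and 9011 in 46C-Ctrl. Hspg2, for perlecan, the large basement membrane proteoglycan, had 5401, 5094 and 3446 in the libraries labelled Zhx1-KO, against 11036, 9723 and 9596 in 46C-Ctrl. Both genes were below every 46C-Ctrl library in each library labelled Zhx1-KO, with Zhx1-KO replicate 3 well under its fellows for Hspg2. The log2 fold changes were -0.90 for Agrn (SE 0.08, limma adjusted p = 5.11e-05) and -1.15 for Hspg2 (SE 0.16, adjusted p = 0.000662). Zhx1-KO replicate 3 was the lowest of its group in 23 of the 42 matrix genes, and 46C-Ctrl replicate 1 was the highest of its group in 22. Such counts were not made over all genes tested, so they may not be particular to matrix genes.

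The nidogens bridge laminin and collagen IV and can stand in for each other in the mouse, and they moved apart here. Nid2 had 2784, 2993 and 2744 normalized counts in the libraries labelled Zhx1-KO, against 5429, 4972 and 5359 in 46C-Ctrl, while Nid1 had 2260, 2283 and 2125 in the libraries labelled Zhx1-KO, against 1875, 1614 and 1803 in 46C-Ctrl. Neither gene overlapped between the groups, with log2 fold changes of -0.89 for Nid2 (SE 0.06, limma adjusted p = 1.36e-05) and 0.34 for Nid1 (SE 0.07, adjusted p = 0.00434). Per kb, Nid2 over Nid1 was 1.72 ± 0.0552 in the libraries labelled Zhx1-KO and 4.0 ± 0.125 in 46C-Ctrl (exact permutation p = 0.1). Exons of Nid2 share 437 bases with Rtraf on the other strand. The paper gives strand-specific settings for its alignment and for StringTie, but no source names the program behind the counts used here or its strand setting. Rtraf averaged 2880 in the libraries labelled Zhx1-KO and 2152 in 46C-Ctrl, so it differed in the other direction.

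Fn1, for fibronectin, the adhesive glycoprotein that the mouse embryo needs for mesoderm and heart formation, was the most abundant of the 42 genes in both groups. Its normalized counts were 11533, 11801 and 10971 in the libraries labelled Zhx1-KO, against 42603, 35803 and 37760 in 46C-Ctrl. The libraries labelled Zhx1-KO held 0.295 times the mean of 46C-Ctrl, far beyond the spread within either group, and the log2 fold change was -1.76 (SE 0.07, limma adjusted p = 1.58e-06). Fn1 was 16.2, 16.4 and 16.6% of the summed counts of the 42 genes in the libraries labelled Zhx1-KO, against 32.1, 30.7 and 31.0% in 46C-Ctrl. Sparc, for osteonectin, a collagen-binding glycoprotein of matrix assembly, came second per kb in both groups. It had 2590, 2902 and 2899 normalized counts in the libraries labelled Zhx1-KO, against 4851, 4595 and 5330 in 46C-Ctrl, with no overlap and a log2 fold change of -0.82 (SE 0.07, limma adjusted p = 6.65e-05).

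Vtn, for vitronectin, an integrin-binding glycoprotein of serum and matrix, went the other way. Its normalized counts were 130, 138 and 113 in the libraries labelled Zhx1-KO, against 38.0, 18.6 and 32.7 in 46C-Ctrl, with a log2 fold change of 2.11 (SE 0.28, limma adjusted p = 0.000554). All 3 libraries labelled Zhx1-KO stood above every 46C-Ctrl library. Sparc and Vtn both lie on chromosome 11, where 675 of 1185 genes tested were higher and 114 lower, with a median log2 fold change of 0.42. The part of that chromosome-wide shift in the Vtn value was not tested, and Sparc fell against it. Sparcl1, a relative of Sparc, was not called, with 110 ± 14.2 in the libraries labelled Zhx1-KO and 76.8 ± 17.7 in 46C-Ctrl (SD, n = 3 each, adjusted p = 0.0703). Ecm1, an extracellular matrix glycoprotein of skin, had the largest standard error of the 42 genes (1.32 on the log2 scale), with 0, 26.3 and 32.6 in the libraries labelled Zhx1-KO, against 108, 76.6 and 21.1 in 46C-Ctrl, and was not called.

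**Figure D4:**
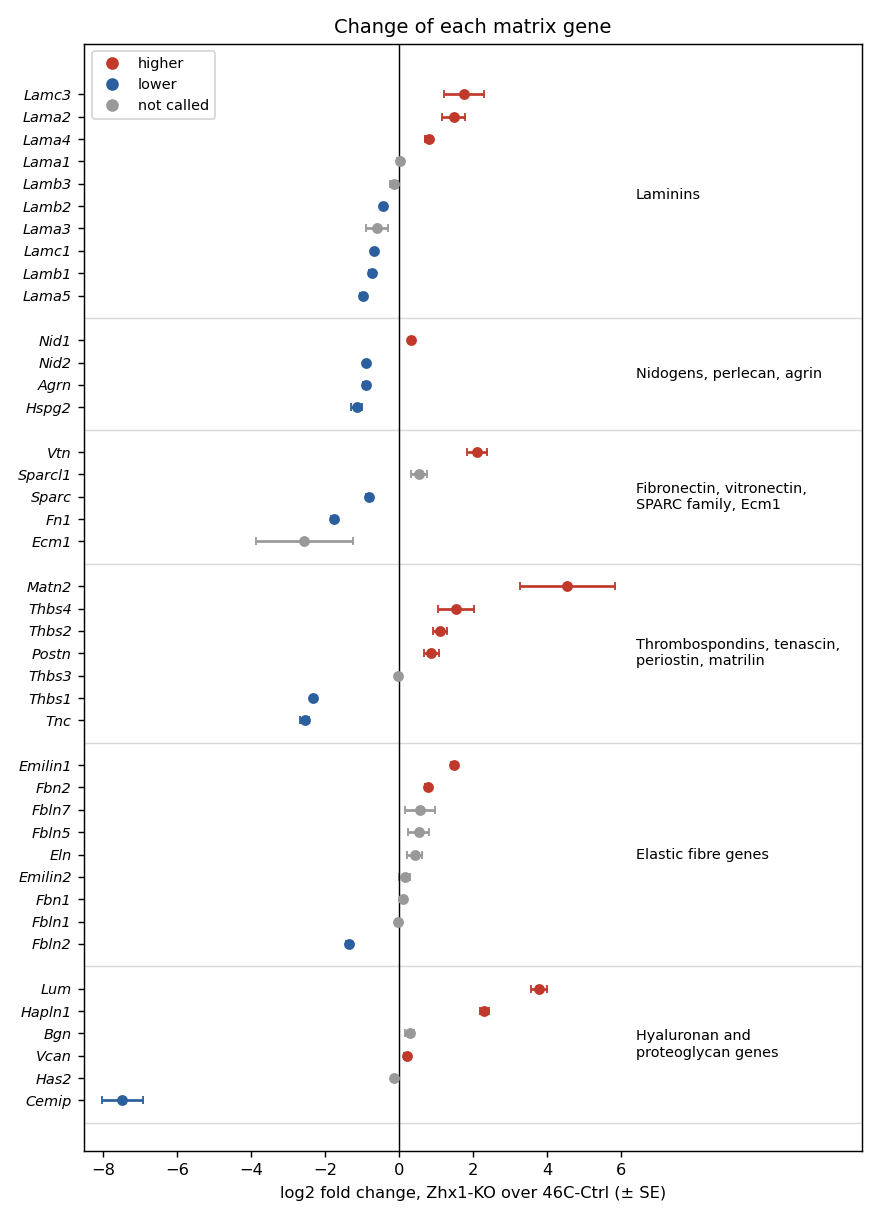
Log2 fold change of 41 matrix genes (libraries labelled Zhx1-KO over 46C-Ctrl, fitted on log2 of the value plus 1) with its standard error, by family, in red where higher, blue where lower and grey where not called. The values run from -7.47 for Cemip to 4.55 for Matn2, and every family holds genes on both sides of 0.

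Thbs1 and Tnc, genes for matricellular proteins that modulate adhesion and are produced at sites of tissue remodelling, had larger falls than Fn1 on the log2 scale. Thbs1, for thrombospondin 1, which activates latent TGF-β, had 948, 934 and 922 normalized counts in the libraries labelled Zhx1-KO, against 4923, 4417 and 4601 in 46C-Ctrl. The libraries within each group agreed closely, and the log2 fold change was -2.31 (SE 0.05, limma adjusted p = 2.41e-07). Tnc, for tenascin C, with 10 CG in its window, had 259, 202 and 187 in the libraries labelled Zhx1-KO, against 1204, 1269 and 1288 in 46C-Ctrl, with a log2 fold change of -2.54 (SE 0.12, limma adjusted p = 3.58e-06). No library of one group reached the other in either gene.

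The other thrombospondins did not follow Thbs1. Thbs2 rose by 1.10 on the log2 scale (SE 0.18, limma adjusted p = 0.00164), with 82.9 ± 3.32 in the libraries labelled Zhx1-KO and 38.1 ± 3.62 in 46C-Ctrl (SD, n = 3 each). Per kb, Thbs1 over Thbs2, the pair that forms trimers, was 13 ± 0.708 in the libraries labelled Zhx1-KO and 141 ± 14.0 in 46C-Ctrl (exact permutation p = 0.1). Thbs3, which forms pentamers, had 590, 537 and 555 normalized counts in the libraries labelled Zhx1-KO, against 578, 539 and 585 in 46C-Ctrl, and was not called, with a log2 fold change of -0.02 (SE 0.07, limma adjusted p = 0.846). The groups overlapped almost fully for Thbs3, whose exons share 318 bases with Mtx1 on the other strand. Thbs4, also a pentamer gene, was called at 23.9 ± 4.48 in the libraries labelled Zhx1-KO and 8.35 ± 5.53 in 46C-Ctrl, with a log2 fold change of 1.55 (SE 0.49, limma adjusted p = 0.0291). That call was lost without Zhx1-KO replicate 1, 2 or 3 (adjusted p = 0.0762, 0.0524 and 0.0933) and without 46C-Ctrl replicate 2 or 3 (0.0635 and 0.0753), and with quantile normalization (0.0528).

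Postn, for periostin, a matrix protein of heart valves and fibroblasts, rose by 0.87 on the log2 scale (SE 0.20, limma adjusted p = 0.00814), with 214 ± 34.8 in the libraries labelled Zhx1-KO and 118 ± 25.5 in 46C-Ctrl. Matn2, for matrilin 2, a filament-forming adaptor protein, had 108, 51.6 and 74.8 normalized counts in the libraries labelled Zhx1-KO, against 0, 0 and 32.7 in 46C-Ctrl. Its log2 fold change of 4.55 (SE 1.28, limma adjusted p = 0.0191) rests on the 2 46C-Ctrl libraries listed at 0, and it was 2.87 (adjusted p = 0.0561) in edgeR's test on whole reads. The limma call was also lost without Zhx1-KO replicate 1 (adjusted p = 0.0595) or 3 (0.053) and without 46C-Ctrl replicate 1 (0.0584) or 2 (0.0509), and in limma without a mean trend (0.0513).

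Elastic fibres consist of elastin on a scaffold of fibrillin microfibrils, with fibulins and emilins as partners, and 6 of the 9 genes of this family were not called. Fbn2, for the fibrillin of embryonic microfibrils, was the most abundant of them and was higher, with 5900, 6016 and 5241 normalized counts in the libraries labelled Zhx1-KO, against 3529, 3217 and 3241 in 46C-Ctrl. The groups were well apart, with a log2 fold change of 0.78 (SE 0.07, limma adjusted p = 5.90e-05). Fbn1, for the fibrillin that is mutated in Marfan syndrome, was not called, with 1979 ± 186 in the libraries labelled Zhx1-KO, 1819 ± 21.3 in 46C-Ctrl (SD, n = 3 each) and a log2 fold change of 0.12 (SE 0.07). Fbn2 over Fbn1 per kb was 2.66 ± 0.122 in the libraries labelled Zhx1-KO and 1.68 ± 0.0833 in 46C-Ctrl (exact permutation p = 0.1).

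Emilin1, for a glycoprotein at the surface of elastic fibres that restrains TGF-β processing, had 735, 836 and 730 normalized counts in the libraries labelled Zhx1-KO, against 285, 269 and 268 in 46C-Ctrl. The libraries labelled Zhx1-KO held 2.80 times the 46C-Ctrl mean with no overlap, and the log2 fold change was 1.48 (SE 0.08, limma adjusted p = 7.71e-06). Fbln2, for a fibulin of the embryonic endocardial cushions, had 379, 451 and 434 in the libraries labelled Zhx1-KO, against 1094, 1022 and 1106 in 46C-Ctrl, and was lower with no overlap, with a log2 fold change of -1.35 (SE 0.08, limma adjusted p = 1.23e-05). Fbln1, its close relative, had 1999, 2015 and 1870 in the libraries labelled Zhx1-KO, against 2035, 1900 and 2044 in 46C-Ctrl. These overlapped, and the log2 fold change of -0.02 (SE 0.06) was not called (limma adjusted p = 0.755).

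The remaining elastic fibre genes were low and were not called. Eln, for elastin, averaged 51.3 ± 5.02 in the libraries labelled Zhx1-KO and 37.8 ± 3.05 in 46C-Ctrl, Fbln5, needed for elastic fibre assembly in the mouse, 36.6 ± 7.34 and 25.1 ± 5.36, and Fbln7 34.1 ± 17.6 and 20.8 ± 1.32 in the same order (SD, n = 3 each). Emilin2 averaged 150 ± 11.4 in the libraries labelled Zhx1-KO and 135 ± 17.6 in 46C-Ctrl. Of these, Eln alone did not overlap between the groups, with a log2 fold change of 0.43 (SE 0.21, limma adjusted p = 0.123).

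Cemip, for a hyaluronan-binding protein that is needed to break hyaluronan down, showed the largest fall of the 42 genes. Its promoter window is printed above and holds 33 CG. It had 1.0, 0 and 4.40 normalized counts in the libraries labelled Zhx1-KO, against 407, 383 and 387 in 46C-Ctrl. The gene was close to undetected in all 3 libraries labelled Zhx1-KO, at 0.00460 times the 46C-Ctrl mean, and the log2 fold change was -7.47 (SE 0.56, limma adjusted p = 3.17e-05). With so few reads on one side this value depends on the constant added before the logarithm, and was -7.99 with 0.5 and -5.92 with 5 in place of 1. Has2, which makes hyaluronan in the embryonic heart, had 2408, 2243 and 2514 in the libraries labelled Zhx1-KO, against 2612, 2654 and 2612 in 46C-Ctrl. The Has2 groups did not overlap but lay close, with a log2 fold change of -0.14 (SE 0.05), and the gene was not called (limma adjusted p = 0.0645).

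Hapln1, for the link protein that locks versican onto hyaluronan and whose window holds 3 CG, had 728, 643 and 672 normalized counts in the libraries labelled Zhx1-KO, against 157, 136 and 120 in 46C-Ctrl. That was 4.95 times the 46C-Ctrl mean, with no overlap and a log2 fold change of 2.30 (SE 0.12, limma adjusted p = 5.00e-06). Vcan, for versican, the large proteoglycan of cardiac jelly, lies beside Hapln1 on chromosome 13 of GRCm38, Vcan from 89655312 to 89742509 on the minus strand and Hapln1 from 89539796 to 89611652 on the plus strand. It had 4193, 3742 and 3778 in the libraries labelled Zhx1-KO, against 3599, 3337 and 3230 in 46C-Ctrl. Vcan was thus higher without overlap but by little, with a log2 fold change of 0.20 (SE 0.06, limma adjusted p = 0.0297), and the call was lost without Zhx1-KO replicate 1 (adjusted p = 0.0933) and without 46C-Ctrl replicate 2 (0.0607) or 3 (0.0973), and in limma without a mean trend (0.0895).

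Lum, for lumican, a small leucine-rich proteoglycan that spaces collagen fibrils, rose the most of the matrix genes with a mean above 100 in the higher group. Its normalized counts were 644, 642 and 708 in the libraries labelled Zhx1-KO, against 34.1, 62.1 and 49.6 in 46C-Ctrl. The libraries labelled Zhx1-KO held 13.7 times the 46C-Ctrl mean, with a log2 fold change of 3.79 (SE 0.21, limma adjusted p = 6.89e-06). Bgn, for biglycan, a proteoglycan of the same leucine-rich family, averaged 141 ± 4.64 in the libraries labelled Zhx1-KO and 115 ± 6.65 in 46C-Ctrl (SD, n = 3 each), did not overlap, and was not called (limma adjusted p = 0.0849). Lum over Bgn per kb was 11.7 ± 0.940 in the libraries labelled Zhx1-KO and 1.06 ± 0.326 in 46C-Ctrl (exact permutation p = 0.1).

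The order of levels per kb was compared within each group. Fn1 stood first with 979 normalized counts per kb in the libraries labelled Zhx1-KO and 3314 in 46C-Ctrl, and Sparc second with 738 and 1300 in the same order. Both stood apart from their neighbours in each group. In the libraries labelled Zhx1-KO the next were Has2, Lamc1, Nid2, Agrn, Lama5 and Lamb1, with overlap from each to the next. The lowest Lamb1 value there was just above the highest of Fbln1, which followed (463 against 461 per kb). In 46C-Ctrl the next were Nid2, Agrn, Lama5, Lamc1, Lamb1, Thbs1 and Hspg2, again with overlap from each to the next. Thbs1 and Hspg2 thus stood among the leading genes in 46C-Ctrl, and Has2 among them in the libraries labelled Zhx1-KO. Has2 was not itself higher in the libraries labelled Zhx1-KO, at 564 normalized counts per kb against 620 in 46C-Ctrl.

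Beyond the 42 genes, 136 other matrix genes from 8 lists were tested, of which 45 were higher, 52 lower and 39 not called, with a median log2 fold change of -0.03. Over all genes tested 25.6% were higher and 26.4% lower, and the counts of these lists and of the marker lists below stand beside those shares. Of the 10 laminin receptor genes, 3 were higher and 4 lower. Itgb1, the β1 subunit shared by most laminin-binding integrins, fell by 0.70 on the log2 scale (SE 0.05), and Bcam, a receptor for Lama5, by 0.64 (SE 0.06), while Sgca, a subunit of the muscle laminin receptor complex, was higher at 28.1 ± 5.23 in the libraries labelled Zhx1-KO and 2.02 ± 0.948 in 46C-Ctrl (SD, n = 3 each). Of the 9 basement membrane collagens, 2 were higher and 3 lower, and the 3 were Col4a1, Col4a2 and Col4a5, with log2 fold changes of -0.76, -0.63 and -0.68. These are the collagen IV chains that the nidogens and perlecan of the list above bind.

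Among the partners of the other families, 8 of 20 elastic fibre and microfibril genes were lower and 6 higher. Efemp2, for fibulin 4, fell by 1.02 on the log2 scale, and Mmrn2, an endothelial relative of the emilins, and Ltbp4, a latent TGF-β binding protein, rose by 3.03 and 2.15. Of 13 other hyaluronan genes 5 were higher and 4 lower. Stab1, for a scavenger receptor of endothelium and macrophages, had 795 ± 77.1 in the libraries labelled Zhx1-KO and 22.5 ± 3.90 in 46C-Ctrl. Of 18 other proteoglycans 8 were higher and 3 lower, of 10 other matricellular genes 4 were higher and 4 lower, and of 21 other basement membrane and matrix glycoproteins 10 were higher and 8 lower. Ccn1 and Ccn2, matricellular genes like Thbs1, fell by 1.31 and 1.89, and Ccn4 had 19 ± 2.23 in the libraries labelled Zhx1-KO, against 639 ± 29.4 in 46C-Ctrl. Of 37 matrix proteases and inhibitors 9 were higher and 18 lower, with Adamts9, a versican protease, lower by a log2 fold change of -1.46 (SE 0.06).

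Marker genes of several cell types moved with these matrix genes, and their part in the results above was not tested. The CP genes of the study, 5 of 6 lower, summed to between 1081 and 1159 in the libraries labelled Zhx1-KO and between 7770 and 8527 in 46C-Ctrl. Most of the 46C-Ctrl sum was Hand1, with a mean of 198 in the libraries labelled Zhx1-KO and 5774 in 46C-Ctrl, and Hand2 and Tbx5 were also lower, with log2 fold changes of -2.52 and -4.48. Parietal endoderm markers were lower in 7 of 10 and higher in 2, with sums of 3607 to 3848 in the libraries labelled Zhx1-KO and 7645 to 8207 in 46C-Ctrl. Krt19, Gata4 and Gata6 made up most of these sums. Their means were 2312.5 and 3750.1, 95.1 and 1609.5, and 174.5 and 860.7, in the same order. Gata4 and Gata6 are not particular to parietal endoderm, as their loss also lowers cardiac genes in the early embryo. Visceral and definitive endoderm markers were lower in 11 of 13 (1831 to 1890 and 5585 to 6063, in the same order). Apoa2 and Apoc2 of that list were under the filter, at 0 in every library labelled Zhx1-KO and at means of 1.34 and 1.32 in 46C-Ctrl. Smooth muscle markers were lower in 4 of 8 and higher in 2 (6049 to 6462 and 15976 to 17134), with Actg2 at 0 in every library labelled Zhx1-KO and at a mean of 12.9 in 46C-Ctrl. Acta2 and Tagln made up most of these sums, with means of 2906.1 and 7928 for Acta2 and 1131.4 and 6598.8 for Tagln. Endothelial markers were higher in 13 of 15 and lower in 1 (7273 to 7826 and 3320 to 3483). Neural markers were higher in 13 of 15 (12095 to 12729 and 1488 to 1651), most of it in the libraries labelled Zhx1-KO from Nnat (mean 7283, against 36.3 in 46C-Ctrl), with Pax6 at a mean of 24.4 in the libraries labelled Zhx1-KO and at 0 in every 46C-Ctrl library, and paraxial mesoderm markers in 7 of 10 (2795 to 2967 and 676 to 822). Fibroblast and feeder markers were higher in 5 and lower in 4 of 10 (4653 to 5390 and 4071 to 4631), and pluripotency genes were higher in 1 and lower in 6 of 8 (3553 to 3668 and 6230 to 6324).

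Depth was similar in all 6 libraries, from 13769967 to 15940874 in units of the smallest step between a library's values. 46C-Ctrl replicate 2 stood apart from its fellows, with a chi-square per gene of 17.3 and 18.7 against 46C-Ctrl replicates 1 and 3, where the other pairs within a group had 5.88 to 8.11. It was the lowest of its group in 22 of the 42 matrix genes, a count not made over all genes tested. Mitochondrial genes held 2.77% of the normalized counts of this library, against 1.78% in each of the other 46C-Ctrl libraries and 1.72 to 1.87% in the libraries labelled Zhx1-KO. Without that library, 10 matrix genes were called higher and 14 lower. Of the 28 called genes, 24 (10 higher and 14 lower) kept their call and direction under each of the 15 alternatives tried in which they were tested, and the exceptions are Lamc3, Thbs4, Matn2 and Vcan.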

How the data were processed

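RNA-seq of mouse 46C-derived CP cells was used, 3 libraries labelled Zhx1-KO and 3 of 46C-Ctrl. Reads were trimmed (cutadapt 1.18) and aligned to GRCm38 with GENCODE M19 (HISAT2 2.1.0) by the authors, who also used StringTie 1.3.4d. Cufflinks and DESeq2 appear in the submitters' processing notes as well. Each deposited value is a signal, the read count of a gene after division by a factor of its library, as DESeq2's normalization gives. The counting program is stated in none of the sources. In each library 100% of values lay within 0.01 of a whole multiple of its step, so whole reads were recovered for edgeR.

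Of 25701 genes, 15372 with a mean of at least 10 were tested on log2(value + 1) with limma 3.58.1 in R 4.3.3 (mean trend, group only, two-sided, Benjamini-Hochberg over all genes tested). Fold changes on this scale can understate changes of low genes, and for genes listed at 0 in some libraries of a group they can exceed the ratio of means. Values in every library are given for members called with at least 2-fold change that averaged 100 or more in the higher group, for the 2 most abundant members of each family and for Zhx1; Nid1, Matn2 and Ecm1 were added after their values were seen. From each wider list up to 3 genes with the smallest adjusted p could be named. Positions and exon lengths are from GENCODE M21 (GRCm38), and all 42 members matched. Exact permutation tests were run over libraries for 15 sums, shares and ratios. The counts and sums over members cover all 42, and 1 member is not reported here by name or drawn. Sums per chain type are given for the α and β chains only. The members and lists were chosen with earlier results of these data known. The scripts were tested on simulated data. Alternatives covered the pseudocount, the filter, quantile normalization, upper-quartile rescaling, limma without trend, edgeR 4.0.16, the replicate block and leaving out each library.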

Additional observations from a re-analysis of the deposited data

How the results depend on the processing

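The matrix genes called higher numbered 10 to 17 and those called lower 14 or 15 over 15 alternatives, against 14 and 14 as reported. With upper-quartile rescaling 17 were higher, with Bgn, Fbn1 and Sparcl1 added, but the median log2 fold change of all genes was then 0.12, against 0.01. edgeR's quasi-likelihood test on whole reads called 13 higher and 14 lower. Leaving out each library in turn gave 10 to 13 higher, the lowest without 46C-Ctrl replicate 2, and 14 or 15 lower. The replicate numbers did not pair the libraries (correlations of deviations 0.00, -0.07 and 0.00), and a fit with the replicate block called 13 higher and 14 lower, losing Lamc3, which says nothing of a weaker effect. Under these alternatives 3 of the 42 genes changed sign, none of them called. Fbln1 had a log2 fold change of 0.071 with quantile normalization, 0.089 with upper-quartile rescaling, and -0.057 to 0.011 when each library was left out. Thbs3 had 0.037, 0.093 and -0.056 to 0.011 in the same order, and Lama1 -0.036 to 0.083 when each library was left out. The causes were not tested. Lamc3, Thbs4 and Matn2, whose calls were lost under several alternatives, averaged under 100 normalized counts in both groups.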
